A study of Mus musculus with 6 samples.

Results

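The genes of voltage-gated calcium channels and of transient receptor potential (TRP) channels were taken from the deposited table by symbol. They are the rows whose gene name begins with Cacn, or with Trpc, Trpm or Trpv followed by a digit. Of the 18872 genes in the table, 46 had such a symbol, 24 of them Cacn genes and 22 TRP genes. Trpc4ap and Trpc5os met the pattern by name only, since Trpc4ap encodes an adaptor protein and Trpc5os is a transcript from the strand opposite Trpc5, which left 44 channel genes. A mean of at least 10 normalized counts over the 6 libraries was reached by 25 of the 46, namely 14 Cacn genes, 10 TRP channel genes and Trpc4ap, and each of these 25 also had at least 10 in every library. A normalized count is the number of reads of a gene divided by a factor for the depth of its library.

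A voltage-gated calcium channel is built around a pore-forming subunit (Cacna1 genes), which opens on depolarization and sets the channel type: L-type, P/Q-type, N-type or T-type. The cytoplasmic beta subunits (Cacnb genes) and the extracellular alpha2delta subunits (Cacna2d genes) bring the pore to the plasma membrane and tune its gating, while most gamma subunits (Cacng genes) are better known as partners of AMPA-type glutamate receptors. TRP channels pass cations without such a strict need for depolarization: TRPC channels open downstream of receptors coupled to phospholipase C, several TRPM channels carry magnesium or sodium, and TRPV channels respond to heat, stretch, osmotic change or ligands. Fibroblasts are not electrically excitable and are better known for TRP channels and for store-operated Ca2+ entry (SOCE), the pathway that the endoplasmic reticulum protein SARAF restrains.

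RNA was sequenced from primary mouse embryonic fibroblasts (MEFs) in 6 libraries, 3 for each of the labels SARAF-KO and SARAF-WT, all of strain background B6. As the study describes its mice, SARAF-KO animals were PGK-Cre+:SARAF fl/fl, in which exon 3 of Saraf is flanked by loxP sites and Cre is expressed ubiquitously from the PGK promoter, and SARAF-WT littermates carried the same floxed alleles without Cre. The cells came from minced trunks of embryos at day 14.5, with each embryo on a dish of its own, and received no treatment. The labels do not say from which embryo or dish a library came, so p-values measure the spread between libraries, which may be technical.

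Saraf itself, which lies on chromosome 8 (34154575 to 34170821, GRCm38), ran against the labels. It had 4631, 4476 and 4384 normalized counts in the SARAF-KO-labelled libraries and 3268, 3409 and 3306 under the SARAF-WT label, a log2 difference of 0.43 (SE 0.03, limma adjusted p = 4.2e-12). These are counts over all its exons, so they do not measure exon 3 alone. Every direction given here is therefore that of the SARAF-KO-labelled libraries relative to the other label. Recovered reads per library ranged from 32799080 to 37979662 in the former and from 24595137 to 32228588 in the latter. Pairs of libraries with the same label had a chi-square per degree of freedom of 1.53 to 3.99 and pairs across labels 39.3 to 47.2, so none was taken for a copy. In bulk RNA, fewer cells of a type and less RNA per cell cannot be told apart. All 10 fibroblast markers passed the minimum. Of these 7 were lower (70.0%, beside 28.0% of all genes tested) and 2, Dcn and Vim, higher (log2 differences of 0.22 and 0.32). Together the 10 summed to 332000 to 338000 normalized counts in the SARAF-KO-labelled libraries and to 407000 to 412000 under the SARAF-WT label.

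Most of the expressed channel genes were lower in the SARAF-KO-labelled libraries. Of the 24 channel genes tested, 14 were lower, 4 higher and 6 not past the threshold. Counted with Trpc4ap, of the 25 genes tested 15 were lower, 4 were higher and 6 did not pass the threshold (limma, two-sided, adjusted p under 0.05, n = 3 libraries per group), so 76.0% were called. Across all 13986 genes tested, 56.2% were called, 28.2% as higher and 28.0% as lower, so the share of lower calls among these genes, 60.0%, was above that background and the share of higher calls, 16.0%, below it. Their median log2 difference was -0.25, beside a median of -0.0 over all genes. The 3 libraries of each label did not overlap for 20 of the 25, beside 61.4% of all genes tested. The Cacn genes, with 9 lower, 3 higher and 2 not called of 14, had a median of -0.46, and the 10 TRP channel genes, with 5 lower, 1 higher and 4 not called, a median of -0.15. Leaving out each library in turn moved the counts over the 25 genes to no fewer than 14 lower and 3 higher.

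**Figure D1:**
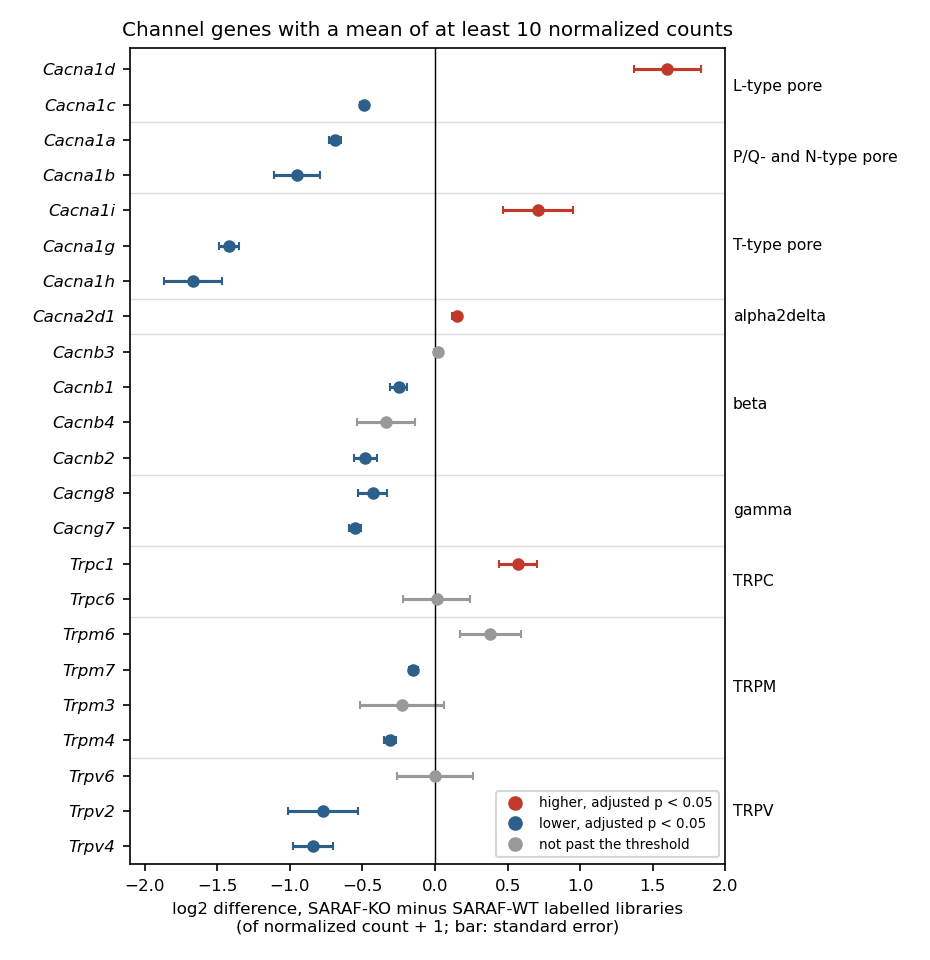
Log2 difference (SARAF-KO label minus SARAF-WT label, of normalized count + 1) of 23 channel genes tested, with its standard error as a bar, grouped by subunit or family; red is higher, blue lower and grey not past the threshold. The T-type genes span the widest range, from -1.67 for Cacna1h to 0.71 for Cacna1i, and Cacna1d has the highest value at 1.60.

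All 7 pore-forming genes tested were called, 5 as lower and 2 as higher, beside 56.2% called among all genes tested. In none of the 7 did the libraries overlap between labels, as held for 61.4% of all genes tested. The L-type genes moved in opposite directions. Cacna1c (chromosome 6, 118587240 to 119196418, minus strand), the main L-type pore of heart and smooth muscle, had 2248, 2189 and 2229 normalized counts in the SARAF-KO-labelled libraries and 3238, 3013 and 3088 under the SARAF-WT label. The lowest SARAF-WT library lay above the highest SARAF-KO library by more than the spread within either label. Its log2 difference was -0.49 (SE 0.03, limma adjusted p = 3.0e-12), a level 71.4% of that in the SARAF-WT libraries. Cacna1d (chromosome 14, 30039939 to 30491455, minus strand), the L-type pore of neuroendocrine cells, hair cells and the sinoatrial node, had 56.9, 48.8 and 63.1 against 18.2, 12.4 and 24.9. Each SARAF-KO library held more than any SARAF-WT library, with a log2 difference of 1.60 (SE 0.23, limma adjusted p = 2.7e-06), a 3.04-fold higher level. Cacna1c exceeded Cacna1d in both groups on a scale corrected for length, at 105 against 4.46 normalized counts per kb of exon in the SARAF-KO-labelled libraries and 147 against 1.47 under the SARAF-WT label. Of the other L-type genes, Cacna1s, the pore of skeletal muscle, had 1 read over all 6 libraries, and Cacna1f, the pore of retinal photoreceptors, had 5.

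Exons of Cacna1d share 589 bases, 4.67% of its exon length, with Chdh on the opposite strand, and the library kit did not mark strand. Chdh, a choline dehydrogenase, had 9 reads in the libraries of each label and was under the minimum.

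The 250 bases before the RefSeq start of the oppositely changed L-type genes are printed here because both encode L-type pores and they moved apart. They are given 5′ to 3′ on the strand of the gene (GRCm38.p6), with capitals for matches to the TATA box letters TATAAA on either strand. The Cacna1c window is chr6:119196410-119196659, minus strand, and the Cacna1d window chr14:30491157-30491406, minus strand.
Cacna1c: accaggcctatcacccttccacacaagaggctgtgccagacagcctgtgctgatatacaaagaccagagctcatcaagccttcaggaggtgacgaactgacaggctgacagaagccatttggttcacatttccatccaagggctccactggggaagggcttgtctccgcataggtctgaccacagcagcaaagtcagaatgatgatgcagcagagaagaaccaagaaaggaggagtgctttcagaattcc
Cacna1d: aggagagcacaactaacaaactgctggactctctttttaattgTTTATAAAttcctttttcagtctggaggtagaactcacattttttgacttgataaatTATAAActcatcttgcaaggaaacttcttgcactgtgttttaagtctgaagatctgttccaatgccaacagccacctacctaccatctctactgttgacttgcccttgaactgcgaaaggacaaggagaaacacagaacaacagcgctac
The Cacna1d window held 3 matches, some of which overlap, 2 CG dinucleotides and 39.6% G and C. The Cacna1c window held no match, 2 CG dinucleotides and 51.6% G and C, and RefSeq lists 3 starts for Cacna1c and 2 for Cacna1d, of which the most upstream was used. In GENCODE the first base of Cacna1d lies upstream of its window, so the window is inside the gene as annotated there and may not be its promoter. Each match is a description of letters and not a site shown to be used.

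The P/Q-type and N-type pores, which serve transmitter release in neurons, were both lower. Cacna1a (P/Q-type, chromosome 8, 84388440 to 84640246) had 907, 901 and 931 normalized counts in the SARAF-KO-labelled libraries and 1473, 1453 and 1501 under the SARAF-WT label. These groups were far apart relative to their spread, with SDs of 15.8 and 23.9 around means of 912.8 and 1476, and the log2 difference was -0.69 (SE 0.04, limma adjusted p = 1.4e-13). Cacna1b (N-type, chromosome 2, 24603887 to 24763152, minus strand) had 40.8, 52.2 and 47.3 against 102, 73.6 and 99.8. Its levels were low and more scattered, yet did not overlap, with a log2 difference of -0.95 (SE 0.16, limma adjusted p = 2.0e-05). The defining neuronal markers Rbfox3 and Dcx had 3 and 9 reads over all libraries. The 10 neuronal markers together summed to 1450 to 1510 normalized counts in the SARAF-KO-labelled libraries and 1070 to 1260 under the SARAF-WT label. Tubb3 carried most of these sums, with means of 1196 against 1024 (log2 difference 0.23), while Stmn2 had 139.6 against 27.51. Of the 6 tested, 3 were higher, none lower and 3 not called. Snap25, under the minimum, went the other way, with 9 reads against 30. The part of the neuronal markers in the channel results was not tested.

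T-type pores, which open near the resting potential, gave the largest falls among the channel genes tested. Cacna1g (chromosome 11, 94408391 to 94474198, minus strand) had 210, 208 and 208 normalized counts in the SARAF-KO-labelled libraries and 545, 526 and 613 under the SARAF-WT label. The SARAF-KO libraries were nearly identical, at 37.2% of the SARAF-WT level, with a log2 difference of -1.42 (SE 0.07, limma adjusted p = 1.2e-14). Cacna1h (chromosome 17, 25374285 to 25433783, minus strand) had 19.5, 25.7 and 15.8 against 69.9, 63.2 and 64.3. It fell to 30.9% of the SARAF-WT level, a log2 difference of -1.67 (SE 0.20, limma adjusted p = 1.7e-07). Cacna1i (chromosome 15, 80287238 to 80398279), best known from thalamic neurons, had 26.3, 36.0 and 35.5 against 17.2, 17.6 and 23.6. It thus went the other way at a low level, with a log2 difference of 0.71 (SE 0.24, limma adjusted p = 0.013). This call did not hold with DESeq2 on the recovered reads (adjusted p = 0.078), without SARAF-KO replicate 2 (adjusted p = 0.067) or without SARAF-KO replicate 3 (adjusted p = 0.06), while its log2 difference stayed between 0.62 and 0.86.

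**Figure D2:**
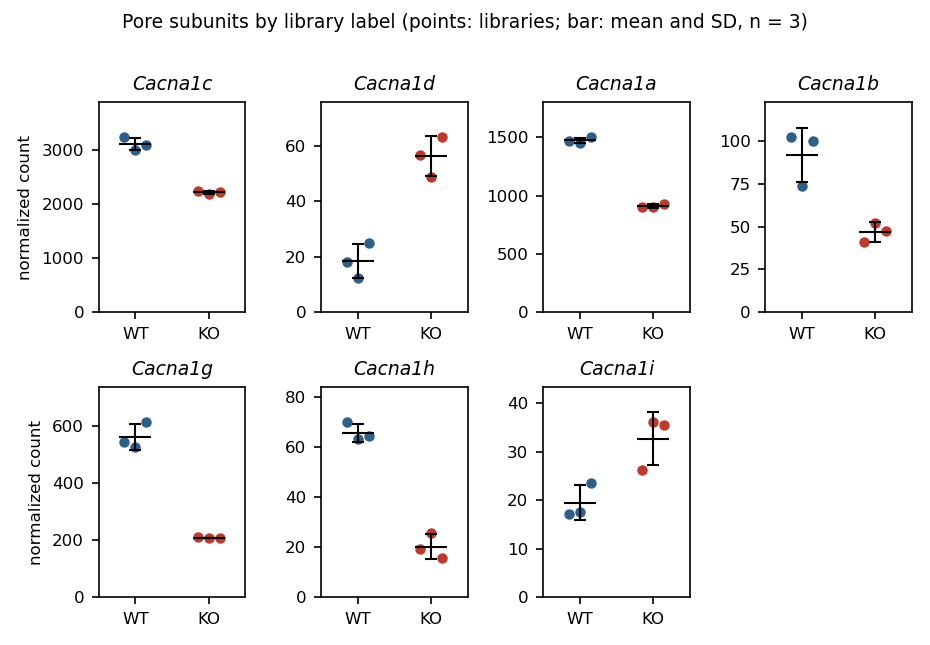
Normalized count of the 7 pore-forming genes tested, by library label (points are libraries, bars the mean and SD of 3). Cacna1c, Cacna1a, Cacna1b, Cacna1g and Cacna1h sit lower in the SARAF-KO-labelled libraries, and Cacna1d and Cacna1i higher; each panel has its own axis from 0.

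The log2 differences of the auxiliary subunits tested ran from -0.55 to 0.15. Among the beta subunits, Cacnb3 was the most abundant and did not differ detectably: it had 4431, 4357 and 4382 normalized counts in the SARAF-KO-labelled libraries and 4464, 4235 and 4335 under the SARAF-WT label. The groups overlapped, and the log2 difference of 0.02 had a 95% confidence interval from -0.04 to 0.07 (limma adjusted p = 0.67). Cacnb1, the beta subunit of skeletal muscle channels, had 480, 506 and 448 against 601, 556 and 553, with a log2 difference of -0.25 (SE 0.06, limma adjusted p = 0.00089). Cacnb2, the main beta subunit of the heart, had 222, 250 and 240 against 301, 355 and 336, with a log2 difference of -0.48 (SE 0.08, limma adjusted p = 1.8e-05). In both, every SARAF-KO library was below every SARAF-WT library. Cacnb4, mainly a beta subunit of the brain, had 27.2, 36.8 and 32.5 against 39.5, 43.5 and 39.4. Its groups did not overlap either, but the log2 difference of -0.34 was not past the threshold (95% confidence interval -0.75 to 0.06, limma adjusted p = 0.14). Cacnb4 shares 16.0% of its exon length with A430018G15Rik and Cacnb2 shares 4.67% with Gm10849, both on the opposite strand and not analysed here, and reads of such a pair cannot be told apart without strand.

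The alpha2delta subunit Cacna2d1, a binding site of gabapentin, was the only tested auxiliary subunit that was higher. It had 3619, 3543 and 3632 normalized counts in the SARAF-KO-labelled libraries and 3166, 3346 and 3228 under the SARAF-WT label. The groups did not overlap, but the difference was small, at a log2 of 0.15 (SE 0.03, limma adjusted p = 0.00013). Cacna2d2 and Cacna2d3 were under the minimum, with means of 8.25 and 7.48 normalized counts, and were not tested. Cacna2d2 had 10.2, 13.7 and 5.92 against 3.04, 11.4 and 5.25, and Cacna2d3 had 1.7, 2.57 and 10.8 against 9.12, 6.22 and 14.4, so that both overlapped between labels.

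The gamma subunits Cacng7 and Cacng8, both of which are known as partners of AMPA receptors, are neighbors on chromosome 7, 22.5 kb apart with no other gene of the table between them, and fell together. Cacng7 (3332955 to 3368221) had 932, 835 and 889 normalized counts in the SARAF-KO-labelled libraries and 1320, 1291 and 1278 under the SARAF-WT label. Cacng8 (3390683 to 3415648) had 144, 167 and 169 against 202, 207 and 242. For neither gene did the groups overlap, and the log2 differences were -0.55 (SE 0.04, limma adjusted p = 1.2e-10) and -0.43 (SE 0.10, limma adjusted p = 0.00052). Per kb of exon Cacng7 was the more abundant, at 447 normalized counts over all libraries beside 80.4 for Cacng8. The next gene of the cluster, Cacng6, had 1 read over all libraries. Of the 17 other genes tested within 1 Mb of Cacng7, Cacng8 among them, 6 were lower and 3 higher, with a median log2 difference of -0.02. The counts around Cacng8, which include Cacng7, were the same. Across all genes tested, 28.0% were lower and 28.2% higher.

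The windows of 250 bases before the RefSeq start of Cacng7 (chr7:3332575-3332824, plus strand) and of Cacng8 (chr7:3393792-3394041, plus strand) are shown because these neighbors moved together. They come from RefSeq on GRCm38.p6 and read 5′ to 3′, with capitals for the GC box letters GGGCGG on either strand.
Cacng7: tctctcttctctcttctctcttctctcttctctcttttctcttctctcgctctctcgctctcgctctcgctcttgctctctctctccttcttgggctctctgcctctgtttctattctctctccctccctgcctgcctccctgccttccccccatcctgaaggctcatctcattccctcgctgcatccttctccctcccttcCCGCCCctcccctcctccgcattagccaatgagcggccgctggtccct
Cacng8: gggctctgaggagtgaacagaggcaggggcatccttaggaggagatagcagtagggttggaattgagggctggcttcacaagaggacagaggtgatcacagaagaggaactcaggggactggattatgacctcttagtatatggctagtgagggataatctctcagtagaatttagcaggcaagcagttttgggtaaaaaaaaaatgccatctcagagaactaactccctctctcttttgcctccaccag
The Cacng7 window held 1 GC box match, 9 CG dinucleotides and 58.0% G and C, while the Cacng8 window held no match, no CG dinucleotide and 48.0% G and C. The Cacng8 window begins downstream of the first base of the gene in GENCODE, so it likewise may not be its promoter. In all, 20 of the 25 genes had a RefSeq window. GC box letters were present in 8 of these 20, beside 33.0% of all 27025 windows, TATAAA in 1, beside 13.0%, the CRE letters TGACG in 8, beside 17.8%, the NFAT core GGAAAA in 2, beside 20.7%, and the AP-1 letters TGANTCA in 0, beside 6.85%. Both strands were searched, and no match says only that these letters are not in the window. The 20 windows held a median of 14 CG dinucleotides, beside 6 in all windows.

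Summed by family and corrected for length, the pores were lower while the sum of the beta genes stayed near the same level. Cacnb3, which did not differ detectably, made up most of that beta sum, while Cacnb1 and Cacnb2 were called lower. The 9 pore genes of the table summed to 219, 218 and 222 normalized counts per kb of exon in the SARAF-KO-labelled libraries and to 357, 338 and 359 under the SARAF-WT label, 37.4% lower. The beta genes summed to 1220 ± 8.80 against 1240 ± 31.6 (mean ± SD, n = 3), and the alpha2delta genes to 292 ± 3.73 against 264 ± 7.67. There were thus 17.8, 17.9 and 18.3 counts per kb of pore for each 100 of beta in the SARAF-KO-labelled libraries, and 28.0, 27.9 and 29.1 under the SARAF-WT label. Gamma genes summed to 432 ± 15.8 against 624 ± 5.79, 30.8% lower, and TRP channel genes to 819 ± 5.82 against 928 ± 24.3, 11.7% lower. These sums use the union of annotated exons as the length, which overstates the length of genes with many transcripts.

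**Figure D3:**
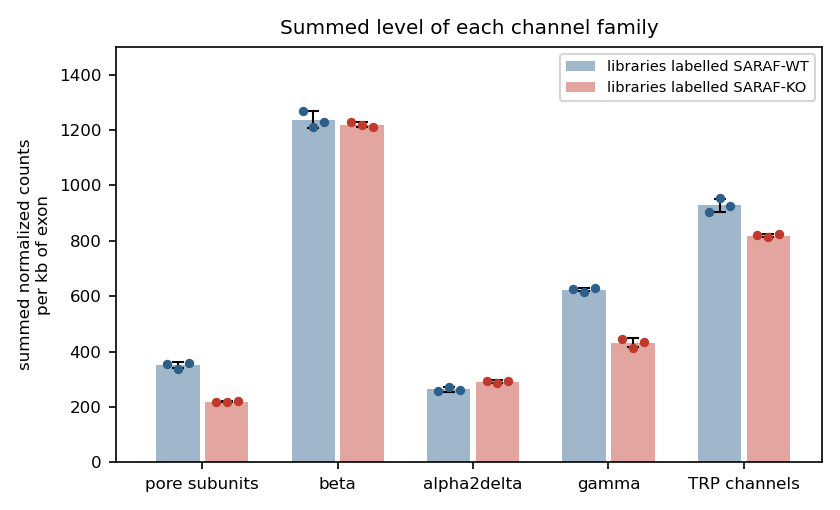
Summed normalized counts per kb of exon for each channel family in the SARAF-WT-labelled libraries (blue) and those labelled SARAF-KO (red); bars are means, whiskers SDs and points the 3 libraries. Pore sums stand at 351 and 220, beta sums at 1240 and 1220.

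The make-up of the pore sum shifted as well. Cacna1c supplied 47.7% ± 0.572 of it in the SARAF-KO-labelled libraries and 41.8% ± 1.13 under the SARAF-WT label, and Cacna1a 36.3% ± 0.297 and 36.8% ± 0.741. Cacna1g supplied 9.36% ± 0.108 against 15.8% ± 0.968, and Cacna1h 0.948% ± 0.241 against 1.92% ± 0.0854. Cacna1d made up 2.03% ± 0.24 against 0.416% ± 0.13, so the L-type pores as a pair had a larger share and the T-type genes Cacna1g and Cacna1h a smaller share where the label was SARAF-KO. The other T-type gene, Cacna1i, had a larger share there, at 1.5% ± 0.249 against 0.562% ± 0.0939. Among the beta subunits, Cacnb3 supplied 89.6% and 87.5% of the sum in the same order.

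Of the TRPC channels, Trpc1 was higher and Trpc6 did not pass the threshold. Trpc1 (chromosome 9, 95705082 to 95750375, minus strand), a subunit that forms mixed channels with other TRPC proteins, had 111, 97.6 and 107 normalized counts in the SARAF-KO-labelled libraries and 62.8, 69.4 and 80.1 under the SARAF-WT label. It was the only TRP channel gene called higher, with no overlap between labels and a log2 difference of 0.57 (SE 0.13, limma adjusted p = 0.00075). Trpc6, which opens on diacylglycerol, had 34.0, 30.8 and 21.7 against 25.3, 25.9 and 34.1. Its groups overlapped, with a log2 difference of 0.01 (95% confidence interval -0.47 to 0.49, limma adjusted p = 0.98). Per kb of exon Trpc1 had 11.0 normalized counts over all libraries and Trpc6 had 5.65.

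Trpm7 (chromosome 2, 126791565 to 126876230, minus strand), a channel fused to a kinase that carries magnesium and other divalent ions, was the most abundant TRP channel gene. It had 4985, 5002 and 5133 normalized counts in the SARAF-KO-labelled libraries and 5423, 5848 and 5457 under the SARAF-WT label. Every SARAF-KO library was lower, by a small amount, with a log2 difference of -0.15 (SE 0.03, limma adjusted p = 0.00018). Its relative Trpm6, the channel-kinase of kidney and gut magnesium uptake, had 40.8, 32.5 and 38.5 against 29.4, 34.2 and 22.3, with overlap and a log2 difference of 0.38 (95% confidence interval -0.06 to 0.83, limma adjusted p = 0.13). Trpm4 (chromosome 7, 45302632 to 45333780, minus strand), a sodium-passing channel opened by intracellular calcium, had 977, 992 and 992 against 1165, 1215 and 1308. It was lower without overlap, with a log2 difference of -0.31 (SE 0.04, limma adjusted p = 1.4e-06). Trpm3, a heat and steroid sensor of sensory neurons, had 15.3, 13.7 and 17.7 against 15.2, 15.5 and 26.3, with a log2 difference of -0.23 (95% confidence interval -0.83 to 0.36, limma adjusted p = 0.52).

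Among the TRPV channels the falls were larger. Trpv4 (chromosome 5, 114622152 to 114658421, minus strand), which responds to osmotic and mechanical stimuli, had 92.6, 79.6 and 62.1 normalized counts in the SARAF-KO-labelled libraries and 146, 120 and 151 under the SARAF-WT label. The spread within each label was wide, but the groups were apart, with a log2 difference of -0.84 (SE 0.14, limma adjusted p = 1.7e-05). Trpv2 (chromosome 11, 62574486 to 62600515), first described as a sensor of noxious heat, had 19.5, 20.6 and 21.7 against 26.3, 45.6 and 38.1. The log2 difference was -0.77 (SE 0.24, limma adjusted p = 0.0073), and without SARAF-WT replicate 2, the library with the most, it was -0.60 and no longer past the threshold (adjusted p = 0.06). Trpv6, a calcium-selective channel of epithelia, had 26.3, 21.4 and 28.6 against 18.2, 23.8 and 36.8, fully overlapping, with a log2 difference of 0.00 (95% confidence interval -0.53 to 0.53, limma adjusted p = 0.99). Its neighbor on chromosome 6, Trpv5, the other calcium-selective member, had 1 read in all.

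**Figure D4:**
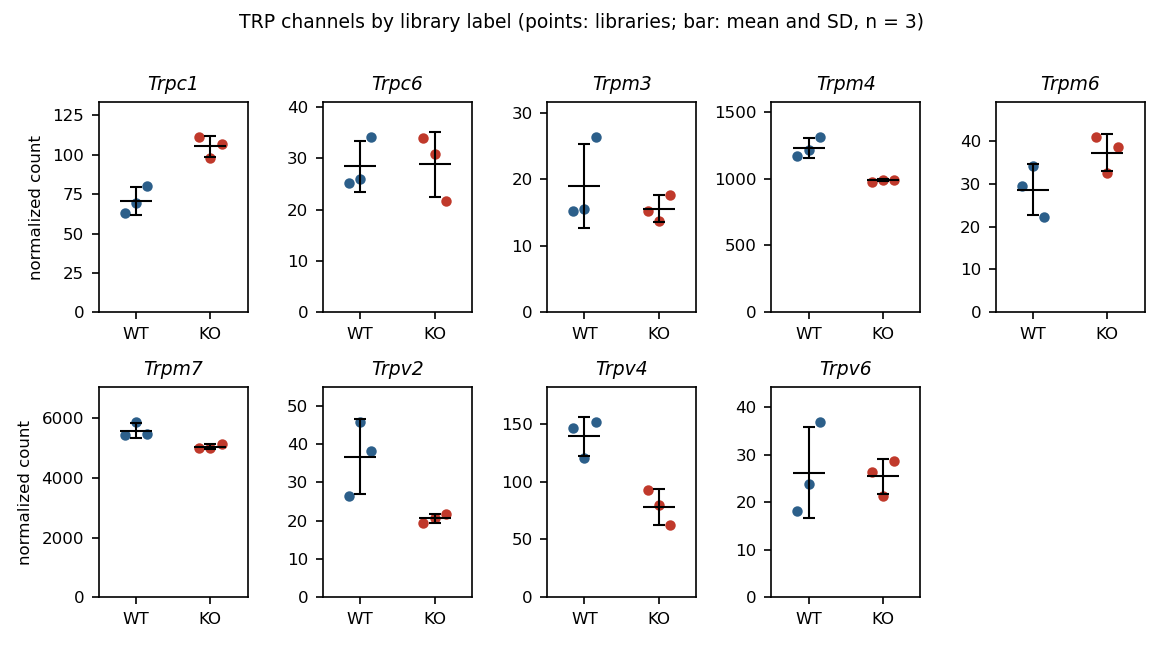
Normalized count of 9 TRP channel genes tested, by library label (points are libraries, bars the mean and SD of 3), each panel with its own axis from 0. Trpm4, Trpm7, Trpv2 and Trpv4 are lower in the SARAF-KO-labelled libraries and Trpc1 is higher, while the points of Trpc6, Trpm3, Trpm6 and Trpv6 overlap.

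The pair that met the pattern by name only also held values. Trpc4ap, whose product binds TRPC channels and serves in a ubiquitin ligase, had 6255, 6236 and 6252 normalized counts in the SARAF-KO-labelled libraries and 6968, 6886 and 6785 under the SARAF-WT label, a log2 difference of -0.14 (SE 0.02, limma adjusted p = 3.8e-05). It shares 37 exonic bases, 0.423% of its exon length, with Myh7b on the opposite strand. Trpc5os had 15 reads in the SARAF-KO-labelled libraries and 1 under the SARAF-WT label, a ratio corrected for depth of 12.1 with an exact 95% interval from 1.86 to 510.0, which covers counting error only. It was under the minimum mean, and without that filter limma called it higher (adjusted p = 0.000582). Trpc5, which lies across it on the X chromosome, had 8 reads over all libraries.

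The other low genes were close to silent at this depth. Of the 46, 21 had a mean under 10, with 1 to 52 reads over all 6 libraries and a median of 3 reads, and 18 of these had no read in at least 1 library. Of the 10 low TRP channel genes, Trpc4, Trpc5, Trpc7, Trpm1, Trpm2, Trpm5, Trpm8, Trpv1, Trpv3 and Trpv5, none had more than 12 reads. The low Cacn genes were Cacna1f, Cacna1s, Cacna2d2, Cacna2d3, Cacna2d4, Cacng1, Cacng2, Cacng4, Cacng5 and Cacng6. A difference between labels was not detectable at this depth for most of them.

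Ordered by length-corrected level over all libraries, the channel genes tested spanned a wide range. Of those named here, Cacnb3 led with 1090 normalized counts per kb of exon, followed by Trpm7 at 469 and Cacng7 at 447, with Cacna2d1 at 276 and Cacna1c at 126. Cacnb1 at 116, Cacna1a at 105 and Trpm4 at 102 lay close together in these means. Some places in this order depended on the label. Under the SARAF-WT label Cacna1a and Cacnb1, at 129 and 126, did not differ beyond their spread, while in the SARAF-KO-labelled libraries Cacna1a was lower, at 79.9 against 106. Trpm7 stood above Cacng7 in the SARAF-KO-labelled libraries, at 445 against 363, and below it under the SARAF-WT label, at 493 against 531. The mean of Cacna1d, 4.46 under the SARAF-KO label, was there above those of Cacnb4 at 3.59, Cacna1i at 3.31 and Cacna1h at 2.08. Cacna1d was not above Cacnb4 in every one of these libraries. The lowest means over all libraries were those of Cacna1d at 2.96, Cacna1i at 2.64 and Trpm3 at 0.708. The most abundant Cacn transcripts per kb after Cacnb3 thus included a gamma and an alpha2delta subunit before any pore.

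Each gene was also set beside its neighbors on the chromosome, since genes of some chromosomes moved together. Across all genes tested, 28.2% were higher and 28.0% lower. Around Cacna1d on chromosome 14, the 27 other genes tested within 1 Mb held 23 lower and none higher, with a median log2 difference of -0.34, and of the 467 genes tested on the chromosome 294 (63.0%) were lower and 50 higher. Cacna1d, at 1.60, thus ran against its neighborhood, where the gene with the nearest start, Dcp1a, an mRNA decapping factor, was at -0.40 and Prkcd, a protein kinase C, at -0.34. Cacna1a, on the same chromosome as Saraf, also ran against its surroundings: of the 63 neighbors tested 31 were higher and 9 lower, with a median of 0.11, while Cacna1a was at -0.69. Chromosome 8 as a whole had 337 higher and 106 lower genes of 736. Around Cacna1c, 11 of 16 neighbors were lower and none higher, with a median of -0.19, the direction of Cacna1c itself. The part of the chromosomal neighborhood in these results was not tested.

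**Figure D5:**
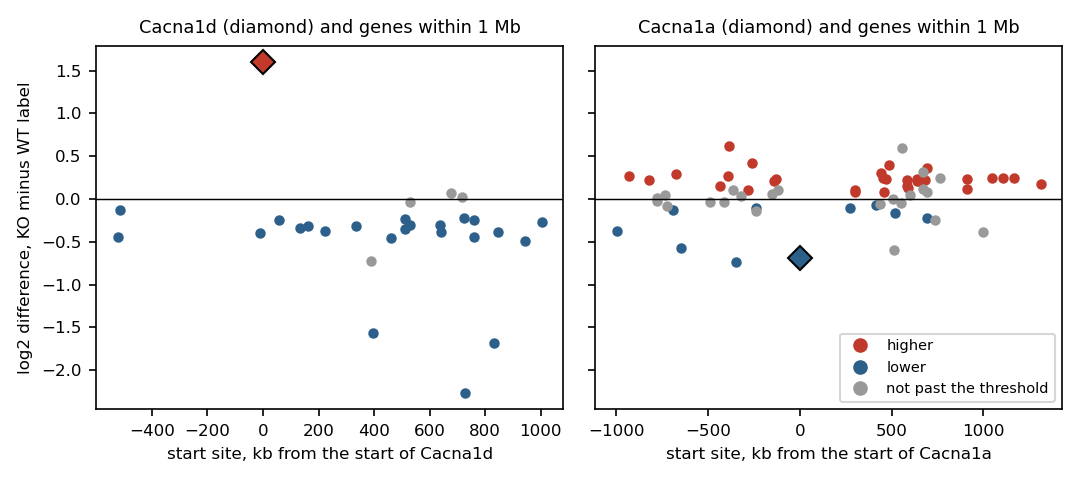
Log2 difference (SARAF-KO label minus SARAF-WT label) of Cacna1d and of Cacna1a (diamonds) and of all tested genes that lie within 1 Mb of either end of each (points), against the distance of their start sites in kb. Cacna1d stands at 1.60 among neighbors with a median of -0.34, and Cacna1a at -0.69 among neighbors with a median of 0.11.

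Of a list of 25 regulators of voltage-gated calcium channels and related channel genes, 22 were tested, of which 9 were lower, 6 higher and 7 not called (68.2% called, beside 56.2% of all genes, median log2 difference -0.06). The higher share, 27.3%, was near the 28.2% of all genes and the lower share, 40.9%, above the 28.0%. The list includes Hvcn1 and the sodium leak channel genes, which are not regulators of these channels, and Hvcn1 and Nalcn are 2 of the 9 lower genes. The RGK proteins, small GTPases that inhibit these channels by binding beta subunits, were led by Rem1, which fell from 77.7 ± 5.98 normalized counts in the SARAF-WT-labelled libraries to 30.6 ± 7.82 in those labelled SARAF-KO (n = 3 each), a log2 difference of -1.34 (SE 0.19, limma adjusted p = 1.2e-06). Rrad and Gem of the same family were lower by less, at -0.35 and -0.32, and Rem2 was not called at -0.16. The voltage-gated proton channel gene Hvcn1 was lower at -1.29 (limma adjusted p = 9.9e-11), as was the sodium leak channel gene Nalcn at -0.73 (limma adjusted p = 4.3e-05). Camk2a and Camk2b, subunits of the calcium and calmodulin kinase that phosphorylates L-type channels, moved apart, at 0.83 (limma adjusted p = 0.00066) and -0.56 (limma adjusted p = 0.00033). Stac2, of a family of adaptor proteins that bind L-type channels, was higher at 0.55 (limma adjusted p = 5.3e-09).

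Other TRP families and the steps upstream of TRPC channels were counted the same way. Of the 7 mucolipin, polycystin and Trpa1 genes tested, 3 were lower, none higher and 4 not called (42.9% called, below the 56.2% of all genes, median -0.21). The lower ones, 42.9% beside 28.0% of all genes, were Mcoln1, Pkd1 and Pkd2, at -0.25, -0.21 and -0.25. Of 20 genes of receptors, G proteins, phospholipases and scaffolds tested, 10 were higher, 4 lower and 6 not called (70.0% called, beside 56.2% of all genes, median 0.11). With DESeq2 on the recovered reads, or at a threshold of 0.01, 6 of them were higher in place of 10. The largest difference was that of Gna14, a G protein alpha subunit that activates phospholipase C beta, with 35.1 ± 2.28 normalized counts in the SARAF-KO-labelled libraries against 6.18 ± 1.67 (log2 difference 2.35, SE 0.29, limma adjusted p = 2.5e-07). The purinergic receptor gene P2ry2 was higher at 0.82 (limma adjusted p = 3.2e-07), and the endothelin receptor gene Ednra was lower at -0.77 (limma adjusted p = 8.7e-10).

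Markers of several cell types were counted as well. Cacna1c and Cacna1h are also known from smooth muscle. Of the 9 smooth muscle and myofibroblast markers tested, 7 were lower (77.8%, beside 28.0% of all genes), none higher and 2 not called. Their median log2 difference was -1.40. The 10 markers of that list summed to 6800 to 7570 normalized counts in the SARAF-KO-labelled libraries and 16200 to 20300 under the SARAF-WT label. Acta2 was at -1.40, Cnn1 at -1.97 and Lmod1 at -3.40, while Myocd, which directs the smooth muscle program, had 4 reads over all libraries. Their part in the channel results was not tested. The skeletal muscle regulators Myog and Myf5 had 1 and 3 reads, the heart myosins Myh6 and Myh7 had 5 and 1, and none of the 2 skeletal muscle markers tested was called. Summed endothelial markers ranged from 1260 to 1350 against 2090 to 2120, with 29 reads of Pecam1 and 1 of Tie1. Of the 2 endothelial markers tested, Kdr was lower (-0.77) and carried most of the sum, while Tek was higher (0.74). Sums of neural crest and Schwann markers ran from 754 to 833 against 134 to 180, with 3 reads of Sox10. Tfap2b, at 564.7 against 14.22, carried most of that difference. Of the 5 tested, 3 were higher (60.0%, beside 28.2% of all genes), none lower and 2 not called. Sums of macrophage markers ran from 496 to 525 against 431 to 461, with 1 read of Ptprc. The largest of them, Cd68, was not called (-0.07), while Cd53 (1.44) and Csf1r (0.8) were higher (66.7% of the 3 tested). The mesothelial sums were 4890 to 5330 against 1730 to 1790, with 3 of the 4 tested higher and Krt18 lower (-1.62). That higher share was 75.0%, beside 28.2% of all genes. The chondrocyte sums were 624 to 715 against 931 to 981, carried mostly by Sox9 (-0.51). The 2 chondrocyte markers tested were lower (100.0%, beside 28.0% of all genes), while Col2a1, under the minimum, had 31 reads against 15. The cardiomyocyte sums were 60.8 to 81.8 against 98.5 to 110. Tnni3 carried most of them and was lower (-0.51), and Nppa, the other cardiomyocyte marker tested, was not called (-0.83). Their part was likewise not tested.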

How the data were processed

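Total RNA of the MEF cultures was made into libraries with an unstranded TruSeq kit. According to the study's methods, the authors aligned the reads with TopHat 2.0.10 (GRCm38), used HTSeq with Ensembl release 82 to obtain a count for every gene, and scaled the counts with DESeq2. Not given in the sources used here are the settings of HTSeq and the version of DESeq2. Their deposited table has a normalized count per gene and library, which is a signal value and not a raw count, beside the authors' own fold changes and p-values, which were not used. All values of each library were whole multiples of its smallest positive value (tolerance 1e-06), which gave the recovered reads.

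Because the unit is a normalized count, the main test was limma 3.58.1 (R 4.3.3, trended variance) of log2-transformed normalized counts with a pseudocount of 1. It took the 13986 genes whose mean reached 10, adjusted their p-values by the Benjamini-Hochberg method and used a threshold of 0.05. On the recovered reads edgeR 4.0.16 called 7926 genes, beside 7864 with limma. DESeq2 1.42.0 and limma-voom, other filters, pseudocounts, a TMM rescaling, a threshold of 0.01, a replicate block and leaving out each library were alternatives, and the scripts were tested on simulated counts. A fold change on the log2 scale with a pseudocount understates the change of low genes.

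Of 18872 symbols, 18661 (98.9%), all 46 channel symbols among them, were matched to GENCODE M21 on GRCm38 for positions and exon lengths. Confidence intervals cover the spread between libraries, and depth sets the precision of genes with few reads. The members and gene lists were chosen with earlier results of these data known. A TRP channel gene among those tested is not reported here by name and enters only the counts, medians and sums. Named are the other members with a mean of at least 10, the low members by name, Saraf, overlapping or adjacent genes where a result turns on them, marker genes that define a cell type, and of each other list the called members with an absolute log2 difference of at least 0.5, up to 6. Rrad, Gem, Rem2, the mucolipin and polycystin genes, Dcp1a, Prkcd, Dcn, Vim, Tubb3, Kdr, Tek and Krt18 were chosen after their values were seen. So were Snap25, Stmn2, Tfap2b, Cd68, Cd53, Csf1r, Sox9, Col2a1, Tnni3 and Nppa. Of Trpc5os, Cacna2d2 and Cacna2d3, values are given although they were not tested.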

Additional observations from a re-analysis of the deposited data

How the results depend on the processing

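Over 17 alternatives, 411 of 416 comparisons of a tested gene with its main result kept the call or lack of one, 5 lost the call and no called gene changed sign, and 23 of the 25 genes kept their status throughout. The lost calls were those of Cacna1i with DESeq2 (adjusted p = 0.078), without SARAF-KO replicate 2 (0.067), without SARAF-KO replicate 3 (0.06) and at a threshold of 0.01, where its adjusted p of 0.013 no longer passed, and that of Trpv2 without SARAF-WT replicate 2 (0.06). Without a filter or with DESeq2, Trpc5os was also called higher (adjusted p = 0.000582 and 0.0496). With a minimum mean of 50, 16 of the 25 genes remained for testing and 2 of these were higher in place of 4, because Cacna1d and Cacna1i fell under the minimum. Genes called across the table ranged from 6948 to 7910 when 1 library was left out, and DESeq2 called 6646. Among the genes not called, the sign of Trpc6, Trpv6, Trpm3 and Cacnb3 changed with the setting.

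The replicate numbers did not pair the libraries: correlations of same-numbered deviations from the group means lay between -0.0 and 0.0, and with all other pairs within -0.01 and 0.01. With the replicate block, limma called 7801 genes in place of 7864, and 4 of the 25 genes higher and 15 lower as without it. Of the other lists, the count of higher genes among the steps upstream of TRPC channels moved from 10 to 6 with DESeq2 and at a threshold of 0.01. Depth limits the precision of genes with few reads, such as Trpm3 with 102 reads over all libraries.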
